A study of Mus musculus with 48 samples.

Results

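The cycling mesothelial-like cells of the day 6 V580 culture were 2129 of the 15412 barcodes (13.8%) of 1 10x single-cell RNA-seq sample. They were chosen by measured values: a barcode had at least 200 genes and at least 1 UMI (a unique molecular identifier, which counts 1 captured RNA molecule) of each of Upk3b, Wt1, Mki67 and Top2a. They were described against 1112 resting mesothelial-like barcodes, which had Upk3b and Wt1 and 0 UMIs of both Mki67 and Top2a. A further 1269 Upk3b and Wt1 positive barcodes had 1 of the 2 proliferation genes, and 1146 other cycling barcodes had Mki67 and Top2a with 0 UMIs of Upk3b and Wt1. V580 stands for Vitamin C together with AM580, a retinoic acid receptor agonist, given to female mouse embryonic stem cells (ESCs, C57BL/6) to make gonadal somatic cell-like cells (GSCLCs). The bulk RNA-seq libraries used here were V580_D4, V580_D6, V580_D8 and V580_D10 GSCLCs, named for the day of induction, and E12.5_GC, cells separated from the gonads of female C57BL/6 embryos at E12.5, with 3 libraries in each of the 5 groups. By the methods, GSCLCs were what remained after a magnetic column took out SSEA1-positive cells, so they are a mixed population from ESCs. The methods give this step for cells used in aggregates and do not say whether the sequenced GSCLCs passed it. Gonadal somatic cells were parted from germ cells in the same way. The labels do not say whether replicates were separate cultures or animals, so p-values measure the spread between these libraries, which may be technical. The 10x data were 1 sample, so no difference in them was tested. Ratios and shares are given with exact 95% intervals that cover counting error only, and cells are not replicates.

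The mesothelium is the epithelial sheet that lines the body cavities. Its embryonic form over the urogenital ridge, the coelomic epithelium, gives rise to somatic cells of the gonad. Upk3b encodes a uroplakin membrane protein that marks mesothelium, and Wt1 is a zinc finger transcription factor needed for gonad and kidney formation. Mki67 encodes Ki-67, which coats mitotic chromosomes, and Top2a encodes the topoisomerase that untangles sister chromatids. In dividing cells, E2F factors switch on the genes of S phase. The genes of G2 and mitosis follow, driven by B-MYB and FOXM1 through a promoter element called the CHR (cell cycle genes homology region), often beside CCAAT boxes, which NF-Y binds.

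The promoters of the 2 proliferation genes of the rule and of the 4 mitotic genes with the highest ratio of cycling over resting barcodes are shown, because these genes separate the groups and their promoters can be read against this layout. Each stretch holds 230 bases before and 20 bases from a RefSeq transcription start (GRCm38.p6), in the direction of the gene. Where a gene had several such windows, the one with the lowest coordinate was printed. On the minus strand that is the start furthest downstream, so a printed window need not be at the main start of its gene. Capitals mark a CHR (TTTGAA or TTCGAA) or a CCAAT box on either strand, so that an antisense CCAAT reads ATTGG and an antisense TTTGAA reads TTCAAA. Mki67 lies at chr7:135716360-135716609 on the minus strand, Top2a at chr11:99024170-99024419 (minus), Hmmr at chr11:40733418-40733667 (minus), Aspm at chr1:139454543-139454792 (plus), Kif2c at chr4:117178753-117179002 (minus) and Prc1 at chr7:80294221-80294470 (plus).
Mki67: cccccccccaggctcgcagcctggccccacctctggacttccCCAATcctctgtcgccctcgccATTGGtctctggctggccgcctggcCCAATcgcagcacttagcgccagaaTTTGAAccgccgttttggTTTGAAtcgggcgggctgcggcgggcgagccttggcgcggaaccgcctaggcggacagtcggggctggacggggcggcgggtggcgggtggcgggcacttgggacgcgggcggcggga
Top2a: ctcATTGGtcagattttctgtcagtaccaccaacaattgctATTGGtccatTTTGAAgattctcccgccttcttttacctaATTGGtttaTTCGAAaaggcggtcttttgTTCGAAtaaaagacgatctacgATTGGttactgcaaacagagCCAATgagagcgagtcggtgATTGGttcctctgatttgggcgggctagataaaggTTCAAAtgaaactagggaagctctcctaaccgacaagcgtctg
Hmmr: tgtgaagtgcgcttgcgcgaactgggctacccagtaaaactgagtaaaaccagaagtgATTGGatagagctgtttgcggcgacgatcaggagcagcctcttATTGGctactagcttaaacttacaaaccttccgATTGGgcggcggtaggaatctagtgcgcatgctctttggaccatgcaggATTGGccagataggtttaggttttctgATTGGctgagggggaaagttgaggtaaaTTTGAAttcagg
Aspm: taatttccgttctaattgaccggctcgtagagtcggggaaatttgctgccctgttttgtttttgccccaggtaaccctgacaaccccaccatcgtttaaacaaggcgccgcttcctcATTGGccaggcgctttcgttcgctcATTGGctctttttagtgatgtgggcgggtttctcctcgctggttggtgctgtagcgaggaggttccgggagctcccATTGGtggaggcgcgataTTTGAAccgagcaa
Kif2c: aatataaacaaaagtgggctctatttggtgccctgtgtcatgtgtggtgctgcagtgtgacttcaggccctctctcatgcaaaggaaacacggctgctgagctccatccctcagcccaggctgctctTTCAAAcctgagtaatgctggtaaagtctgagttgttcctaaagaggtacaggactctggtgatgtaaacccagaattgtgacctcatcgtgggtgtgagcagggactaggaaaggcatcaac
Prc1: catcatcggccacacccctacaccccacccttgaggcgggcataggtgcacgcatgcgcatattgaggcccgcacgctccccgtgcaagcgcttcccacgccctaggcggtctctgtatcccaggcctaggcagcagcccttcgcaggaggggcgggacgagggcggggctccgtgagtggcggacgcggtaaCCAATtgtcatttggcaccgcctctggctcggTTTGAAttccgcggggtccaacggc

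All 6 windows held a CHR match. Mki67 had 2, at 116 and 98 bases before the start, and Top2a had 4. In Hmmr and Aspm the match began at base 9 and base 7 after the start, and in Prc1 it began 5 bases before it. Kif2c had 1 antisense match at 103 bases before the start. CCAAT boxes numbered 6 in Top2a, 5 in Hmmr, 3 in each of Mki67 and Aspm, 1 in Prc1 and 0 in Kif2c. The E2F letters TTTCGCGC, TTTGGCGC and TTTCCCGC were searched on both strands and had 0 matches in the 6 windows, which says only that these letters were not there. Over 27025 genes with a window of this length, with chromosome 18 left out, 18.8% held a CHR, 37.3% a CCAAT box and 1.86% one of the E2F words. For these shares and those of the lists, a gene counted if any of its windows held a match, unlike the single windows printed. Of 80 mitotic list genes, 45 (56.2%) held a CHR, 61 (76.2%) a CCAAT box and 10 of the 80 an E2F word. Of 33 DNA replication genes, 7 (21.2%) held a CHR, 18 (54.5%) a CCAAT box and 6 (18.2%) an E2F word, and of 13 mesothelial genes, 3 (23.1%) held a CHR, 3 a CCAAT box and 0 an E2F word. A match describes the letters and is not a measured site.

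The cycling barcodes were deep. Their median was 18076 UMIs (922 to 179817) and 4579 genes, against 11251 UMIs and 3452 genes in resting barcodes and 9193 UMIs over the whole sample, which held 163008244 UMIs. Mitochondrial UMIs had a median of 3.53% in cycling and 3.9% in resting barcodes, and 0 barcodes of either group passed the study's limit of 40%. The 5% of barcodes with the most UMIs, where a barcode shared by 2 cells would tend to fall, held 328 of the cycling (15.4%) and 6 of the resting barcodes (0.540%). Values without them, and without barcodes that held any UMI of a defining gene of another lineage (Sox17, Foxa2, Tubb3, Stmn2, Cdh5, Pecam1, Ptprc, Hbb-y, Pou5f1 or Nanog), are given where they turn a result. No doublet caller was run, and the part of doublets in these values was not tested.

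Many members lay close to the threshold of 1 UMI. Of the cycling barcodes, 898 had exactly 1 UMI of at least 1 of the 4 genes and 1231 had 2 or more of each. Just outside the rule, 1194 barcodes lacked Upk3b alone, 254 Wt1 alone, 1077 Mki67 alone and 192 Top2a alone. Members just inside held 154 UMIs of the mitotic lists per 10000, members with 2 or more of each gene 193, and barcodes that lacked Mki67 alone 78.3. The median cycling barcode held 3 UMIs of Upk3b, 5 of Wt1, 5 of Mki67 and 11 of Top2a. Per 10000 UMIs, Upk3b was at 2.22 in cycling and 2.90 in resting barcodes, and Wt1 at 2.78 and 3.51. The 4 genes chose the groups, so their values are a description.

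Upk3b and Wt1 were also found, at lower shares, in barcodes with the marker pairs of other lineages. With each barcode thinned to 7500 UMIs and shallower barcodes left out, Upk3b was found in 42.0% (40.9 to 43.1) and Wt1 in 63.1% (62.0 to 64.1) of 8361 barcodes. In 293 barcodes with Sox17 and Foxa2, transcription factors of endoderm, the shares were 11.3% (7.88 to 15.5) and 14.7% (10.8 to 19.3). In 35 barcodes with the neuronal genes Tubb3 and Stmn2 they were 11.4% (3.2 to 26.7) and 40% (23.9 to 57.9). The share for Upk3b was close in both sets, and that for Wt1 was higher in the neuronal set.

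The share of mesothelial-like barcodes with both proliferation genes moved with depth. On all UMIs, 47.2% (45.7 to 48.7) of the 4510 Upk3b and Wt1 positive barcodes held both Mki67 and Top2a, against 18.0% (17.0 to 18.9) of 6376 barcodes with neither mesothelial gene, whose median depth was 2160.5 UMIs against 14513. With both groups set again on counts thinned to 7500 UMIs, the shares were 38.0% (36.2 to 39.8), or 1090 of 2870, and 37.4% (35.5 to 39.4), or 914 of 2444, with overlapping intervals. Of the groups set on all UMIs, 4040 and 1564 barcodes reached that depth. The thinned group with neither gene thus also held barcodes that had Upk3b or Wt1 on all UMIs, so these shares compare partly mixed groups. Without thinning, in classes of depth, the share in Upk3b and Wt1 positive barcodes was 9.62% of 104 under 2500 UMIs, 35.1% (27.9 to 42.8) from 5000 to under 7500, 23.1% (19.1 to 27.4) from 7500 to under 10000, 29.0% (26.8 to 31.4) from 10000 to under 15000, 59.8% (56.8 to 62.7) from 15000 to under 20000 and 88.6% of 306 from 30000 on. It was above the share in barcodes with neither gene, with intervals that did not overlap, from 2500 to under 5000 (23.7% (18.0 to 30.3) against 15.2% (13.0 to 17.6)), from 5000 to under 7500 (18.8% (14.7 to 23.4)) and from 15000 to under 20000 (45.0% (39.8 to 50.4)). In the other classes the intervals overlapped, with 25.7% (20.1 to 31.9) and 29.9% (25.9 to 34.1) in barcodes with neither gene from 7500 to under 10000 and from 10000 to under 15000. By the amount of Upk3b in Wt1 positive barcodes, the share on all UMIs was 39.6% (36.9 to 42.4) with 1 UMI of Upk3b, 43.1% (39.5 to 46.7) with 2, 47.8% (45.2 to 50.4) with 3 to 5 and 58.0% (55.0 to 61.0) with 6 or more. With the classes set again on counts thinned to 7500 UMIs, the shares of these 4 classes lay between 36.6% and 38.5%, with overlapping intervals.

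**Figure D1:**
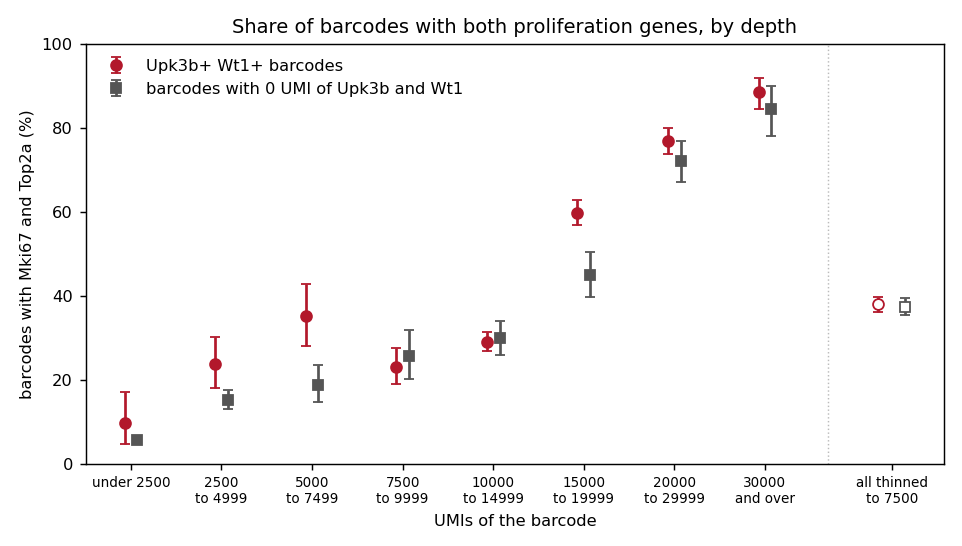
Share of barcodes with at least 1 UMI of Mki67 and of Top2a (%, y axis) by the UMIs of the barcode (x axis), with exact 95% binomial intervals for counting error, in Upk3b and Wt1 positive barcodes and in barcodes with neither gene. Both series end higher than they start, the Upk3b and Wt1 positive one with a drop from 35.1% to 23.1% on the way. The values for groups set again on counts thinned to 7500 UMIs lie at 38.0% and 37.4%.

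The genes of mitosis set the cycling barcodes apart from the resting ones. The 99 genes of the 4 mitotic lists held 179 UMIs per 10000 in cycling and 58.6 in resting barcodes, a ratio of 3.05 (3.03 to 3.07). Of the 99, 88 were at least 2-fold higher in cycling barcodes and 0 at least 2-fold lower, with a median ratio of 6.77. Over the 13207 genes with at least 50 UMIs in both groups together, 4.44% were at least 2-fold higher and 0.727% at least 2-fold lower, with a median ratio of 0.977. The rule used Mki67 and Top2a in the same cells, so these ratios describe the groups and nothing is read from them against that background.

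Spindle and kinesin genes had the highest summed ratio, 6.75 (6.58 to 6.93), with 28 of 29 at least 2-fold higher. Hmmr, a spindle assembly protein, held 0.0687 UMIs per 10000 in resting barcodes, 0.181 in barcodes with 1 of the 2 proliferation genes and 1.96 in cycling barcodes, a ratio of cycling over resting of 28.6 (23.1 to 35.8). At 7500 UMIs it was found in 56.6% of cycling and 4.37% of resting barcodes. Aspm acts at spindle poles and had a ratio of 23.4 (18.3 to 30.5). Kif2c, a kinesin that depolymerises microtubules, had 23.0 (16.6 to 32.9), and Prc1, which bundles the central spindle, 20.5 (17.5 to 24.1). Nusap1, a microtubule-binding protein of the spindle, was at 19.99 (16.3 to 24.9). The gene of this list under 2-fold was Psrc1, at 1.57 and 1.31 UMIs per 10000 and a ratio of 1.19 (1.13 to 1.26).

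All 26 kinetochore and checkpoint genes were at least 2-fold higher, with a summed ratio of 6.71 (6.55 to 6.88). Cenpf, a kinetochore protein of G2 and mitosis, was at 0.322 UMIs per 10000 in resting and 5.88 in cycling barcodes, a ratio of 18.3 (16.6 to 20.2). Cenpa, the centromeric histone H3, had a ratio of 6.18 (5.72 to 6.70) and Birc5, of the chromosomal passenger complex, 8.95 (7.95 to 10.1). The checkpoint gene Bub3 was near the low end at 2.22 (2.07 to 2.38).

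Of the mitotic cyclins, kinases and genes of the anaphase-promoting complex, 21 of 22 were at least 2-fold higher, with a summed ratio of 4.28 (4.18 to 4.37). Foxm1, a transcription factor of the G2 programme, had a ratio of 15.3 (9.96 to 24.8), and Plk1, a mitotic kinase, 14.4 (11.5 to 18.3). Cyclin B1 (Ccnb1) was at 8.69 (7.6 to 9.98), its kinase Cdk1 at 6.54 (5.96 to 7.19) and Ube2c, an E2 enzyme that works with the anaphase-promoting complex, at 7.99 (7.39 to 8.65). Pttg1, which encodes securin, the inhibitor of separase, was the 1 gene that did not follow. It held 0.435 UMIs per 10000 in cycling, 0.435 in 1-gene and 0.443 in resting barcodes, and at 7500 UMIs it was found in 25.9% of cycling and 27.5% of resting barcodes.

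Condensin and chromatin genes were more mixed, with 13 of 22 at least 2-fold higher and a summed ratio of 1.99 (1.97 to 2.01). The condensin subunits Ncapg and Smc4 had ratios of 8.44 (7.08 to 10.1) and 4.11 (3.87 to 4.37). The abundant chromatin proteins differed less: Hmgb2 was at 3.23 (3.14 to 3.33), the histone variant H2afz at 1.77 (1.73 to 1.81) and Hmgb1 at 1.68 (1.65 to 1.70). Hist1h2ap, a replication-dependent histone gene, had a ratio of 15.6 (14 to 17.3). Its near-identical family copies can share reads, so its value is uncertain. Mxd3 and Mxd4 are both MAX partners, and Mxd3 had a ratio of 18.5 (10.3 to 37.2) while Mxd4 had 0.507 (0.461 to 0.559).

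DNA replication genes separated the groups less. The 48 genes held 42.3 UMIs per 10000 in cycling and 23.2 in resting barcodes, a ratio of 1.82 (1.80 to 1.85), and 22 of 48 were at least 2-fold higher. E2f8, an atypical E2F, had a ratio of 6.91 (4.83 to 10.2). Atad2, a chromatin ATPase, was at 3.48 (3.21 to 3.76) and Nasp, a histone chaperone, at 1.60 (1.54 to 1.65). The helicase subunits Mcm3 and Mcm7 were at 1.5 (1.42 to 1.59) and 1.44 (1.36 to 1.52). Ung, a uracil-DNA glycosylase, was lower in cycling barcodes, at 0.324 against 0.537 UMIs per 10000, a ratio of 0.603 (0.550 to 0.662).

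The barcodes with 1 of the 2 proliferation genes came closer to the cycling barcodes in replication than in mitotic transcripts. At 7500 UMIs the median barcode held 121 mitotic list UMIs in the cycling, 52 in the 1-gene and 41 in the resting group, and 31, 20 and 15 replication list UMIs. The replication median of the cycling barcodes was reached by 31.7% (29.0 to 34.5) of 1-gene barcodes (360 of 1134) and 10.2% (8.28 to 12.4) of resting barcodes (91 of 893). The resting group thus held some barcodes with many replication transcripts. Their mitotic median was reached by 2.65% (1.79 to 3.76) and by 0 of 893 (upper bound of the exact interval 0.412%). The 1-gene and resting groups were split by Mki67 and Top2a themselves, so this too is a description.

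Of the 48 replication genes, 42 had their highest level in the cycling barcodes and 6 in the 1-gene barcodes. The 6, named for this after their values were seen, were Mcm2, Mcm4 and Mcm6 of the replicative helicase, Ccne1 (cyclin E1), the transcription factor E2f1 and Ung. The ratio of 1-gene over cycling barcodes was 2.14 (1.98 to 2.31) for Ung and 1.17 (1.12 to 1.23) for Mcm6. For Mcm4, 1.05 (0.993 to 1.11), and E2f1, 1.09 (0.963 to 1.23), the interval included 1.

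**Figure D2:**
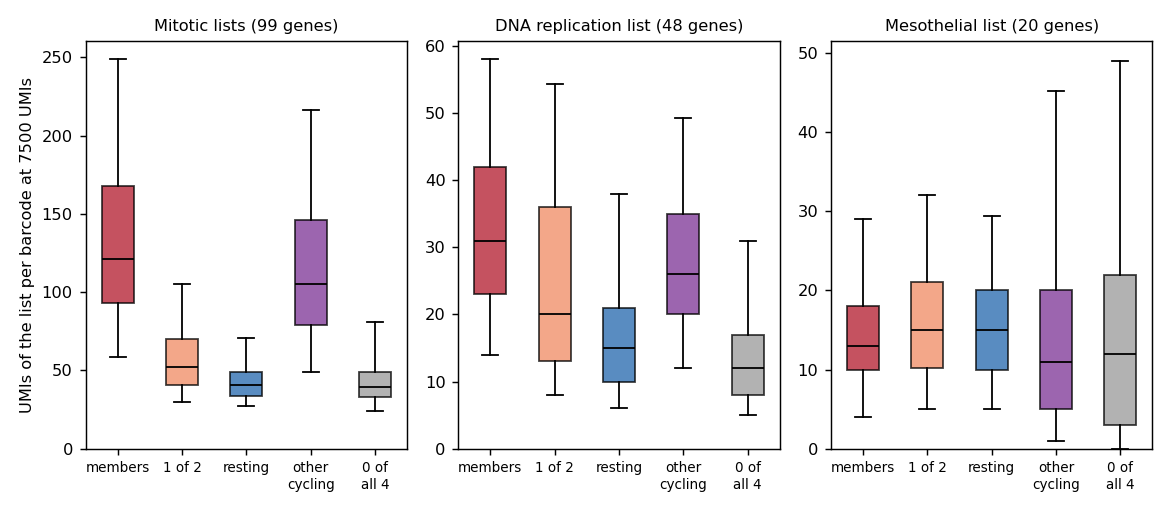
UMIs per barcode of the mitotic, DNA replication and mesothelial lists (y axis), each barcode thinned to 7500 UMIs, in cycling mesothelial-like barcodes, in Upk3b and Wt1 positive barcodes with 1 or with 0 of Mki67 and Top2a, in other cycling barcodes and in barcodes with 0 of all 4 genes. The line is the median, the box the middle 50% and the whiskers the 5th to 95th percentiles of 2013, 1134, 893, 737 and 314 barcodes. Mitotic medians are 121, 52 and 41 in the first 3 groups, and mesothelial medians 13, 15 and 15.

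The cycling barcodes spread widely among themselves. The 2013 with at least 7500 UMIs were ordered by mitotic list UMIs and divided into 4 equal bins, which are ranges of a sum and not cell types. From the lowest bin to the highest, the mean mitotic sum was 71.5, 107, 141 and 217 UMIs, and Ccnb1 was found in 26.8%, 35.0%, 60.6% and 87.1% of their barcodes. The bins were cut by this sum and Ccnb1 is part of it, so both rises follow from the ordering. Replication list UMIs were highest in the second bin, with means of 32.2, 39.7, 34.1 and 26.2. Hist1h2ap was highest there too, at 2.07, 4.86, 4.49 and 2.47 UMIs a barcode, and Ccne2 (cyclin E2) was found in 15.5%, 19.1%, 11.9% and 4.97%. The mesothelial list varied little, with means of 15.8, 14.6, 13.8 and 14.2, as did Upk3b, with 1.64, 1.78, 1.86 and 1.94. Ccne2 was named after its values were seen.

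Inhibitors of the cycle were slightly lower in sum and D-type cyclins were level. The 16 CDK inhibitors and anti-proliferative genes had a summed ratio of 0.905 (0.892 to 0.919), with 2 at least 2-fold higher and 0 at least 2-fold lower. A ratio above 1 was found for 6 of the 16. Gas1, the most abundant of them, was at 5.95 UMIs per 10000 in cycling and 6.80 in resting barcodes. Cdkn1a (p21) was at 1.63 UMIs per 10000 in cycling and 2.27 in resting barcodes, a ratio of 0.718 (0.687 to 0.750), and Cdkn1c (p57) at 0.821 (0.776 to 0.869). The 2 genes at least 2-fold higher encode INK4 inhibitors, Cdkn2d at 2.06 (1.78 to 2.40) and the scarce Cdkn2c at 6.80 (3.23 to 17.2). Cdkn1b (p27) was also higher in cycling barcodes, at 0.518 against 0.303 UMIs per 10000, as was Ccng2, at 0.272 against 0.167. Both were named after their values were seen. The 5 D-type cyclins and partners had a summed ratio of 0.980 (0.958 to 1.00), with the kinase Cdk4 at 1.01 (0.976 to 1.04). The 10 targets of p53 summed to 0.820 (0.804 to 0.837), among them Zmat3, an RNA-binding protein, at 0.727 (0.670 to 0.789).

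The mesothelial genes were at nearly the same level in cycling and resting barcodes. The 20 genes summed to 20.5 and 21.6 UMIs per 10000, a ratio of 0.95 (0.937 to 0.963) and a median ratio of 0.943. The list was at 21.2 in other cycling barcodes and 23.7 in barcodes with 0 of all 4 genes. Its sum thus did not mark the Upk3b and Wt1 positive barcodes. Between cycling and resting barcodes, 0 genes were at least 2-fold higher and 1 at least 2-fold lower. That gene was the claudin Cldn15, at 0.0130 and 0.0287, a ratio of 0.451 (0.292 to 0.706). Aldh1a2, which makes retinoic acid, was at 1.14 and 1.16, a ratio of 0.979 (0.924 to 1.04). Podxl, a sialomucin of the apical surface, had a ratio of 0.940 (0.899 to 0.983) and Ezr (ezrin), which ties that surface to actin, 0.905 (0.871 to 0.941). Krt19, a keratin of simple epithelia, was lower in cycling barcodes at 2.77 against 3.99, a ratio of 0.693 (0.671 to 0.717).

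Gonad and retinoid lists were slightly lower in sum, with single genes on both sides. The 25 gonad primordium factors summed to a ratio of 0.842 (0.830 to 0.854), and of the 23 with enough UMIs 1 was at least 2-fold higher and 1 at least 2-fold lower. Wnt4, a ligand needed for ovary development, was at 2.80 UMIs per 10000 in cycling, 3.94 in 1-gene and 4.44 in resting barcodes, a ratio of 0.631 (0.611 to 0.651). Amhr2, the anti-Mullerian hormone receptor, had 0.497 (0.376 to 0.659). The transcription factors Nr2f2, Gata6 and Emx2 were closer, at 0.872 (0.843 to 0.901), 0.845 (0.807 to 0.884) and 0.842 (0.790 to 0.898). The 15 retinoid genes summed to 0.938 (0.920 to 0.956), and of the 14 with enough UMIs 2, Rbp4 and Cyp26a1, were at least 2-fold higher and 0 at least 2-fold lower. Dhrs3, a retinaldehyde reductase, was the lowest at 0.641 (0.610 to 0.673).

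Of 5 factors of gonadal somatic cells chosen from the gonad list after their values were seen, 4 were found in under 3% of the cycling barcodes. Of 2129, Gata4 was found in 809 (38.0%), Foxl2 in 60 (2.82%), Lhx9 in 48 (2.25%), Amh in 5 (0.235%) and Nr5a1 in 2 (0.0939%). At 7500 UMIs Gata4 was in 21% of cycling, 21.7% of resting and 25.5% of other cycling barcodes. Other genes of that list were frequent in the cycling barcodes, with Nr2f2 in 85.5%, Wnt4 in 73.5% and Gata6 in 62.8% at that depth.

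**Figure D3:**
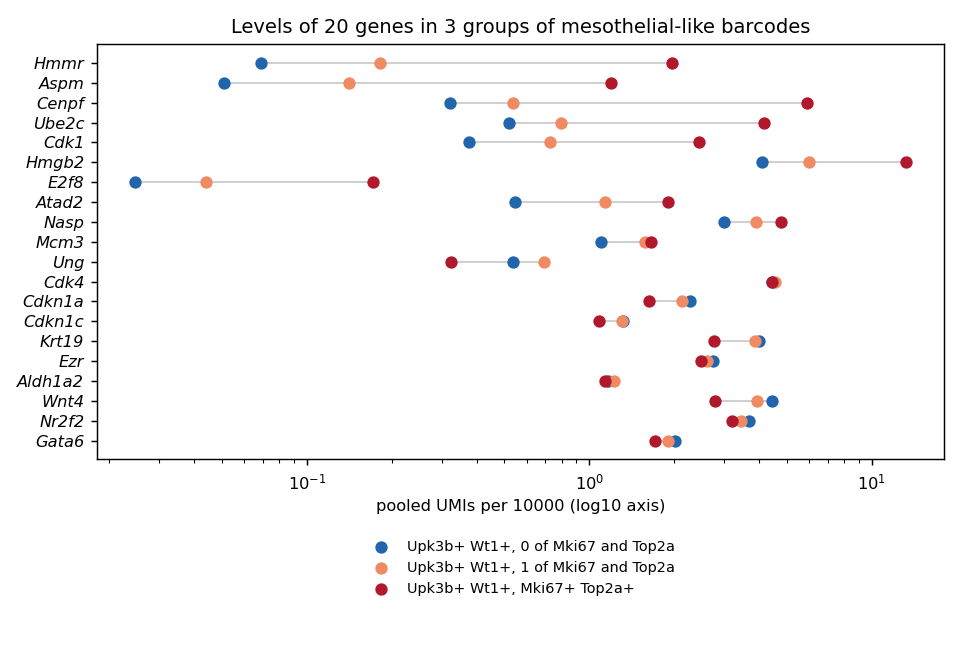
Pooled UMIs per 10000 (x axis, log10) of 20 genes (y axis) in Upk3b and Wt1 positive barcodes with 0, 1 or both of Mki67 and Top2a. Hmmr spans 0.0687 to 1.96, whereas Aldh1a2 lies between 1.14 and 1.23 and Ung is highest with 1 of the 2 genes, at 0.692.

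Among all genes that passed the limits for naming, some of the lowest ratios of cycling over resting barcodes belonged to signalling, transport and metabolic genes. Angpt2, an angiopoietin, was at 0.0690 and 0.168 UMIs per 10000, a ratio of 0.412 (0.344 to 0.494). Fbxo32, a ubiquitin ligase subunit, had 0.420 (0.334 to 0.529), and Aqp5, a water channel, 0.443 (0.384 to 0.513). Ass1, argininosuccinate synthase, was at 0.525 (0.464 to 0.596) and the Notch ligand Jag2 at 0.533 (0.433 to 0.659).

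Beside other cycling barcodes, the cycling mesothelial-like barcodes had a like mitotic level and differed in single identity genes. The mesothelial list in sum was nearly level. At 7500 UMIs the ratio of mesothelial-like over other cycling barcodes was 1.15 (1.14 to 1.16) for the mitotic lists and 1.18 (1.16 to 1.20) for the replication list. It was 0.967 (0.946 to 0.989) for the mesothelial list and 1.25 (1.22 to 1.29) for the gonad primordium list. Upk1b, Aldh1a2, Emx2 and Wnt4, given below, thus lay far above the sums of their lists. Hmmr was at 1.96 and 2.06 UMIs per 10000. Ratios were 24.5 (14.8 to 43.9) for Plxna4, a semaphorin receptor, 16.6 (10.6 to 27.8) for the uroplakin Upk1b and 15.9 (10.8 to 24.4) for the growth factor Fgf18. Aldh1a2 was 11.6-fold (9.98 to 13.6) higher, Emx2 6.19-fold (5.43 to 7.08) and Wnt4 4.74-fold (4.44 to 5.05). At the other end, Dppa5a, a gene of pluripotent cells, was at 0.191 against 2.11 UMIs per 10000 and Stra8, a retinoic acid target needed for meiosis, at 0.0774 against 0.647. The rule used Upk3b and Wt1 to part these groups, so the differences are a description.

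Several genes of other lineages had ratios of cycling over resting barcodes above 1, which most of those named here lost when barcodes with another lineage's defining gene were left out. The 16 extraembryonic endoderm genes summed to 1.17 (1.15 to 1.19), with 9 of the 15 that reached 50 UMIs at least 2-fold higher. The 7 genes of the Rhox and S100g groups summed to 1.56 (1.51 to 1.61), with 5 of 7 at least 2-fold higher. S100g, a calcium-binding protein, had a ratio of 3.62 (3.12 to 4.22), Rbp4, a retinol carrier, 3.99 (3.51 to 4.55) and Cyp26a1, which degrades retinoic acid, 2.57 (2.28 to 2.91). At 7500 UMIs, S100g was found in 10.2% of cycling and 9.18% of resting barcodes and Fabp3, a fatty acid-binding protein with a pooled ratio of 2.41 (2.22 to 2.62), in 24.5% and 24.6%. Without barcodes holding a UMI of another lineage's defining gene, which left 1589 cycling and 978 resting barcodes, the ratio was 0.903 for the endoderm list, 0.965 for the Rhox and S100g groups, 0.723 for S100g, 0.978 for Rbp4 and 0.855 for Cyp26a1. Sox17 and Foxa2, used for that removal, are themselves on the endoderm list. Without the deepest 5% of barcodes the endoderm list was at 0.951, while thinned to 7500 UMIs it stayed above 1, at 1.08 (1.05 to 1.10). The homeobox gene Rhox9 kept a ratio above 1, at 3.70 (3.03 to 4.56) with all barcodes and 1.95 without those.

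Among defining markers of other cell types, the interstitial collagens were frequent in cycling barcodes and the others were not. At 7500 UMIs, Col1a1 was in 32.6% of cycling, 34.4% of resting and 18.0% of other cycling barcodes, Col3a1 in 39.3%, 36.5% and 18.7%, and both together in 20.7%, 18.5% and 11.9%. Their part in the other values was not tested. At 7500 UMIs, Sox17 was in 5.86% of 2013 cycling, 3.70% of resting and 33.2% of other cycling barcodes, and Foxa2 in 3.87%, 1.68% and 25%. Of cycling barcodes, the endothelial markers Cdh5 and Pecam1 were in 0.298% and 0.497%, the neuronal markers Tubb3 and Stmn2 in 0.497% and 2.68%, and the pluripotency factors Pou5f1 and Nanog in 1.14% and 0.497%. Ptprc and Hbb-y, of leukocytes and embryonic red cells, were at 0 of 2129 barcodes, which allows a share with a UMI of up to 0.141% (3 counts of the total), and 7 of the 10 macrophage and blood genes were at 0. Collagen-rich interstitial genes were level, at a ratio of 1.01 (1.00 to 1.02) with all barcodes and 0.919 without those holding another lineage's defining gene.

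**Figure D4:**
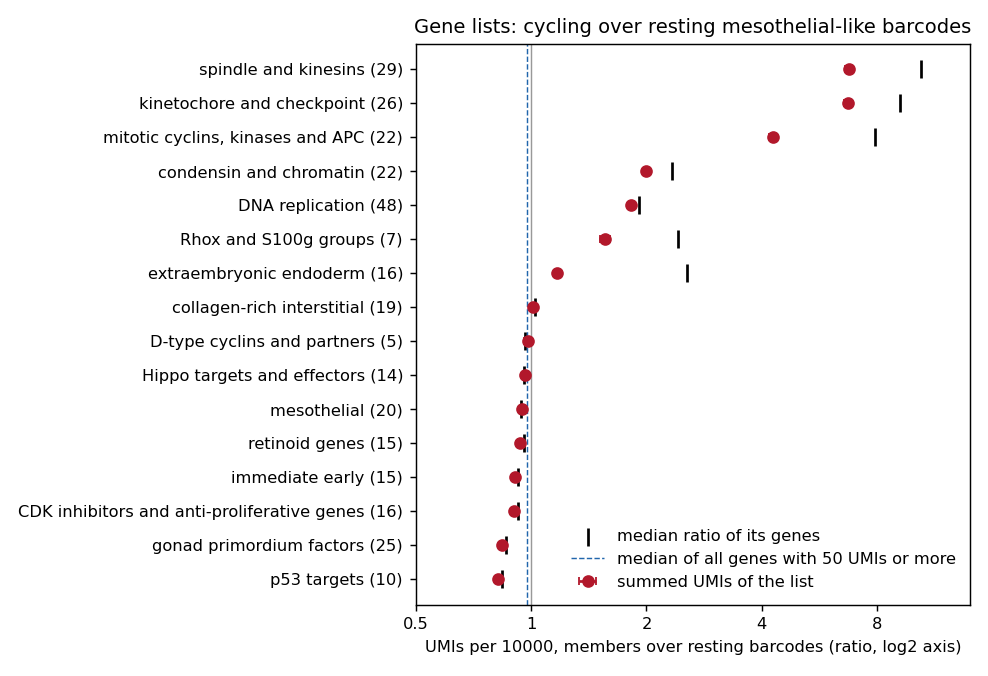
Ratio of pooled UMIs per 10000 in cycling over resting mesothelial-like barcodes (x axis, log2 scale) for the gene lists (y axis). Points give the summed UMIs of a list with exact 95% counting intervals, and ticks the median ratio of its genes. The 4 mitotic lists lie between 1.99 and 6.75 and the mesothelial list at 0.95.

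In the bulk libraries, Upk3b had its highest levels at V580_D8 and V580_D10, while Mki67 and Top2a were lower there than at V580_D6. Bulk RNA cannot tell fewer cells of a type from less RNA per cell. Upk3b was 22.5, 22.6 and 22.4 FPKM (fragments per kilobase of transcript, scaled to the library's fragments) in the 3 V580_D4 libraries, 59.6, 67.8 and 61.6 at V580_D6, 99.9, 103 and 95.1 at V580_D8, 103, 94.6 and 100.5 at V580_D10 and 42.5, 47.4 and 39.4 in E12.5_GC. The V580_D4 and V580_D6 libraries did not overlap, and Upk3b rose between them by 1.44 ± 0.07 on the log2(FPKM + 1) scale (SE, n = 3 and 3, limma adjusted p = 9.94e-10). It was the 1 call among the 16 contrasts of the 4 genes past both an adjusted p of 0.05 and 2-fold. From V580_D4 to V580_D6, 3.41% of 11512 genes passed both as higher and 1.67% as lower.

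Wt1 stayed under 2-fold in each contrast. It was 23.7, 23.0 and 21.6 FPKM at V580_D4, 42.9, 47.4 and 45.1 at V580_D6, 58.9, 60.5 and 60.5 at V580_D8, 52.0, 53.4 and 51.7 at V580_D10 and 67.0, 64.5 and 86.0 in E12.5_GC. The log2 difference of V580_D6 minus V580_D4 was 0.95 ± 0.09 (SE, limma adjusted p = 5.61e-07) and that of E12.5_GC minus V580_D6 was 0.66 ± 0.09 (limma adjusted p = 9.68e-06).

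Mki67 was 26.0, 24.4 and 25.9 FPKM at V580_D4, 24.4, 26.2 and 25 at V580_D6, 16.6, 16.7 and 16.4 at V580_D8, 16.7, 18.3 and 19.9 at V580_D10 and 16.4, 8.88 and 19.5 in E12.5_GC. Its V580_D4 and V580_D6 libraries overlapped, with a log2 difference of -0.01 ± 0.18 (SE, limma adjusted p = 0.97), whereas those of V580_D6 and V580_D8 did not, with -0.58 ± 0.18 (limma adjusted p = 0.0192). Top2a was lower at V580_D6 than at V580_D4 and lower again at V580_D8. It was 63.0, 60.7 and 61.9 FPKM at V580_D4, 49.6, 52.0 and 49.4 at V580_D6, 37.2, 34.4 and 33.9 at V580_D8, 35.1, 33.9 and 37.2 at V580_D10 and 29.1, 20.7 and 26.7 in E12.5_GC. The Top2a log2 difference was -0.29 ± 0.09 for V580_D6 minus V580_D4 (SE, limma adjusted p = 0.0194), with no overlap of the libraries. It was -0.51 ± 0.09 for V580_D8 minus V580_D6 (SE, limma adjusted p = 0.000572) and -0.97 ± 0.09 for E12.5_GC minus V580_D6 (limma adjusted p = 3.3e-07). The Top2a difference to E12.5_GC passed 2-fold without E12.5_GC replicate 1 (-1.06) or replicate 3 (-1.004).

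**Figure D5:**
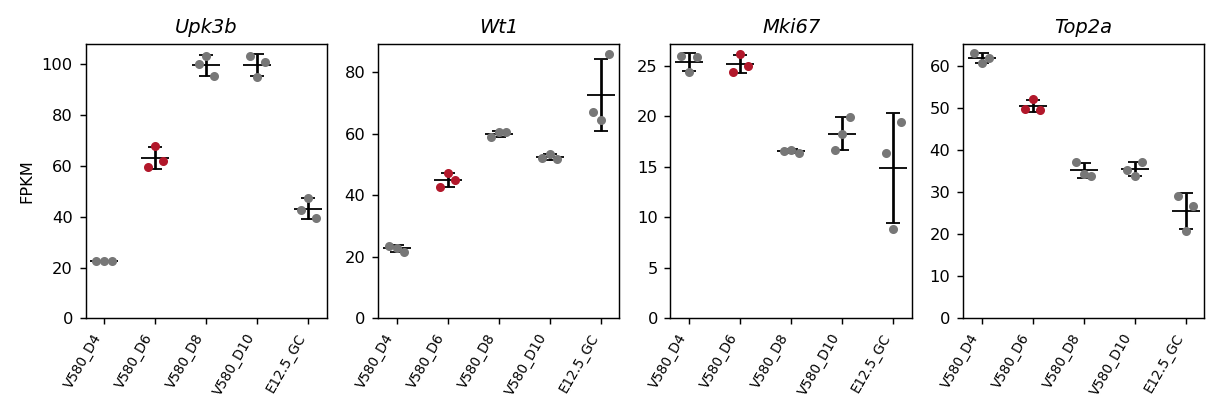
FPKM (y axis) of Upk3b, Wt1, Mki67 and Top2a in the 3 bulk libraries of V580_D4, V580_D6, V580_D8, V580_D10 and E12.5_GC (x axis), with points for libraries and the mean ± SD of each group. Upk3b goes from a mean of 22.5 to 99.3 at V580_D8, and Top2a from 61.8 to 35.1.

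The mitotic lists were lower at V580_D6 than at V580_D4, and lower at V580_D8 and V580_D10 than at V580_D6, by small amounts. From V580_D4 to V580_D6, 0 of 95 tested genes passed both an adjusted p of 0.05 in limma and 2-fold, 68 were lower and 3 higher at an unadjusted p under 0.05, and 60 were lower and 3 higher at an adjusted p under 0.05 of any size, against 23% and 21.9% of all genes. Their median log2 difference was -0.32 against -0.01 over all genes. From V580_D6 to V580_D8, 0 of 95 tested genes passed both an adjusted p of 0.05 in limma and 2-fold (2.29% of all genes did as higher and 0.252% as lower), and 89 were lower at an unadjusted p under 0.05. At an adjusted p under 0.05 of any size, 86 of 95 mitotic and 46 of 48 replication genes were lower at V580_D8, against 20.9% of all genes (20.3% were higher), with median log2 differences of -0.47 and -0.52 against -0.02 over all genes. At V580_D10, 76 and 44 were lower by that limit, against 29.2% of all genes, and 2 and 5 fell at least 2-fold, against 1.5%.

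The mesothelial list moved in both directions. From V580_D4 to V580_D6, 6 of 18 tested genes rose at least 2-fold and 1 fell, against 3.41% and 1.67% of all genes. At an adjusted p under 0.05 of any size, 11 were higher and 4 lower, against 21.9% and 23% of all genes. The median log2 difference was 0.61 against -0.01 over all genes. Aldh1a2 rose by 2.62 ± 0.06 (SE, limma adjusted p = 6.31e-13) and Upk1b by 2.81 ± 0.11 (limma adjusted p = 1.12e-10), while Cdh1 (E-cadherin) fell by 1.35 ± 0.18 (limma adjusted p = 2.32e-05). At V580_D10, 3 genes rose at least 2-fold from V580_D6 (5.32% of all genes did) and 2 fell (1.5% of all genes did). At an adjusted p under 0.05 of any size, 6 were higher there and 10 lower, against 28.9% and 29.2% of all genes, with a median log2 difference of -0.40.

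E12.5_GC libraries were lower than V580_D6 in many mitotic genes and in 9 of 18 tested mesothelial genes. Of 95 mitotic genes, 37 were at least 2-fold lower, against 7.06% of all genes, and 0 at least 2-fold higher, against 8.11%, while 85 were lower at an adjusted p under 0.05 of any size, against 35% of all genes (32% were higher). Hmmr was lower by a log2 difference of -1.56 ± 0.08 (SE, limma adjusted p = 3.3e-10) and Ccnb1 by -1.18 ± 0.06 (limma adjusted p = 2.54e-10). Pttg1 was 1 of 3 mitotic genes that were higher at an adjusted p under 0.05 of any size. It was 0.50 ± 0.12 higher on the log2 scale (limma adjusted p = 0.00156) and under 2-fold. Of 18 mesothelial genes, 9 were at least 2-fold lower and 1 higher. The higher gene was Aldh1a1, a retinaldehyde dehydrogenase named after its value was seen, at 1.60 ± 0.14 (SE, limma adjusted p = 1.35e-07). Krt19 was lower by a log2 difference of -3.68 ± 0.14 (SE, limma adjusted p = 1.09e-11) and Ezr by -1.92 ± 0.07 (limma adjusted p = 2.92e-12).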

How the data were processed

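The 10x sample and 15 bulk libraries of the series were used, grouped by their labels. Cell Ranger was run by the authors on mm10, and the deposited table holds UMI counts per gene and barcode. The study describes the 10x work in triplicate, but the table holds 1 sample with 1 barcode suffix. Bulk reads were aligned by the authors with HISAT2 to mm10, and the deposited table holds FPKM. The sample records list RSEM and featureCounts among their tools, but which tool made the FPKM is not given in the sources used here. The depth of the bulk libraries is unknown. Of the FPKM columns, 16 were not used, and neither were the other processed files.

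Barcodes with at least 200 genes were kept. UMIs were pooled per group and scaled to 10000 (Python 3.11.15, NumPy 2.4.6, SciPy 1.17.1, pandas 2.3.3, matplotlib 3.10.9), with exact conditional intervals for ratios and Clopper-Pearson intervals for shares at 95%, and genes needed 50 UMIs in both groups together. Barcodes were thinned to 7500 UMIs for comparisons across depth. Groups stayed those set on all UMIs, except for the shares with both proliferation genes and the shares in marker-pair sets. For those, groups were set again on the thinned counts. FPKM values were tested with limma-trend 3.58.1 (R 4.3.3) on log2(FPKM + 1), which understates the change of low genes, over 11512 genes at 1 FPKM or more in at least 3 libraries, in 1 model of the 5 groups with Benjamini-Hochberg adjustment. Both procedures were tested on simulated data. Genes named were the rule genes, up to 6 of each list by UMIs plus its 2 highest and 2 lowest ratios, the 20 highest and 15 lowest ratios of all genes found in at least 10% of the higher group, and the 10 highest and lowest against other cycling barcodes, with exceptions stated. Members, lists and rules were chosen with earlier results of these data known. Promoters came from RefSeq. Leaving out barcodes with another lineage's defining genes, or shallow barcodes, was added after seeing the data.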

Additional observations from a re-analysis of the deposited data

How the results depend on the processing

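The cycling group held 1090 barcodes when the rule was applied to barcodes thinned to 7500 UMIs. The share of Upk3b and Wt1 positive barcodes with both proliferation genes was then 38.0%, 36.9% with 2 or more UMIs of each, 43.5% without the deepest 5% and 44.1% without barcodes holding another lineage's defining gene, the last chosen after seeing the data. In these and the equal-weight and one-UMI-range settings, list ratios kept their side of 1 for the mitotic lists (3.25 with 2 or more UMIs, 3.08 thinned, 3.15 without the deepest, 2.92 with equal weight, 3.21 in one UMI range, 3.19 without other lineages), the replication list (1.94 thinned, 1.92 without the deepest, 1.87 in one range, 1.88 without other lineages) and the mesothelial list (0.920 thinned, 0.888 without the deepest, 0.926 equal weight, 0.878 in one range, 0.879 without other lineages). The collagen list turned below 1 (0.995, 0.906, 0.959, 0.916 and 0.919 in the same order of 5), as did the endoderm list in some settings (0.951 without the deepest, 0.974 in one range, 0.903 without other lineages). Thinned, the endoderm list stayed above 1, at 1.08 (1.05 to 1.10). Without other lineages, also below 1 were the pluripotency list (0.786, from 1.27 (1.18 to 1.37) with all barcodes) and the Rhox and S100g groups (0.965). So were Cited1 (0.894), Cyp26a1 (0.855), Dppa5a (0.623), Fabp3 (0.826), Fst (0.896), Rbp4 (0.978), S100g (0.723) and Stra8 (0.694). The cause was not tested, and Pou5f1 and Nanog, used for that removal, are themselves on the pluripotency list. With a minimum of 10 UMIs, 1086 genes were 2-fold higher and 468 lower, since more genes were counted.

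In the bulk fits, leaving out 1 library gave Mki67 differences of V580_D6 minus V580_D4 between -0.039 and 0.011, and Top2a differences of E12.5_GC minus V580_D6 between -1.06 and -0.83. A pseudocount of 0.1 raised the calls from 585 to 1054 for V580_D6 minus V580_D4, from 293 to 599 for V580_D8, from 786 to 1276 for V580_D10 and from 1747 to 2484 for E12.5_GC against V580_D6. Replicate numbers did not pair the samples (correlations of -0.074 to 0.0666), and with the replicate block the counts of calls were the same (585, 293, 786 and 1747), Upk3b from V580_D4 to V580_D6 stayed at 1.44 and no call of the 4 genes changed. Counting depth limits low genes such as Cldn15, and shares at 7500 UMIs miss genes of low level.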

Other observations

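Immediate early genes, which respond to stimulation and cell dissociation, were slightly lower in the cycling barcodes, with a summed ratio of cycling over resting of 0.910 (0.896 to 0.924) and 0 of 13 genes with enough UMIs past 2-fold. Targets and effectors of the Hippo pathway, with Yap1 and the Tead factors among them, summed to 0.963 (0.944 to 0.982), also with 0 of 14 past 2-fold. Endothelial genes were scarce and summed to 0.834 (0.789 to 0.881), and neuronal genes to 1.30 (1.15 to 1.47), with 2 of 8 at least 2-fold higher.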
